A study of Mus musculus with 6 samples.

Results

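Transcripts of the enzymes of glycolysis, pyruvate handling and the citric acid cycle were compared in the pituitary gland of male mice, over a list of 45 gene symbols that runs from hexokinase to malate dehydrogenase. A row of the deposited count table belonged to the list where its upper-case symbol was one of the 45. This gave 42 genes among 16736 rows, and all 42 passed the filter on low counts, as did 13873 rows in all. PC (pyruvate carboxylase), GPI (glucose-6-phosphate isomerase) and FH (fumarase) had no row under these symbols and were not analysed here. Of the 6 bulk RNA-seq libraries, 3 came from males labelled HFD and 3 from males labelled RD, and both groups had been refed for 4 h after fasting for 16 h. HFD and RD are left as abbreviations in the labels, although the title of the series sets the comparison in obesity. Strain, age, batch and date are not among the labels, nor is it said whether libraries of a group came from separate animals or from pooled glands. The p-values therefore reflect variation among libraries that could be partly or wholly technical.

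Glycolysis splits glucose into pyruvate in the cytosol. Its investment phase spends ATP to make phosphorylated sugars, and its payoff phase returns ATP and NADH. Lactate dehydrogenase converts pyruvate into lactate, whereas the mitochondrial pyruvate carrier and the pyruvate dehydrogenase complex pass it to the citric acid cycle as acetyl-CoA, and pyruvate dehydrogenase kinases switch that complex off. In many tissues the transcription factor HIF1 induces glycolytic genes, LDHA and PDK1 together when oxygen is low.

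Transcripts of PGK1, HK2, LDHA, ALDOA and the citric acid cycle subunit IDH3A were lower in HFD than in RD pituitaries, whereas PDK1, SUCLG2 and PFKM were higher. These 8 of 42 genes (19.0%) passed edgeR's quasi-likelihood test at a Benjamini-Hochberg adjusted p under 0.05 over all tested genes, and are referred to as called. Of all 13873 tested genes 10.5% were called, and of the 9361 tested genes expressed at or above the level of the lowest gene of the list 12.1%. The 5 genes called lower were 11.9% of the list, against 4.61% of all tested genes and 6.25% of those 9361. The 3 called higher were 7.14% of the list, against 5.87% of all tested genes and 5.84% of those 9361. The called changes were modest, between -0.59 and 0.47 as log2(HFD/RD), with PGK1 and HK2 the farthest below 0 and PDK1 the farthest above. PGK1, HK2, LDHA and ALDOA lie on the way from glucose to lactate, and so does PFKM, which was higher. Glycolysis with lactate dehydrogenase had 19 tested genes. Of them 4 were called lower (21.1%), 1 was called higher (5.26%) and 14 were not called.

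The list as a whole lay close to no change. Its median log2 change was -0.05, against -0.0023 over all tested genes, and the median size of the change was 0.095, against 0.16. Over the 9361 genes at or above the level of the lowest listed gene the median was -0.027 and the median size 0.13. A log2 change below 0 was found for 28 of the 42 genes. The HFD and RD libraries did not overlap for 16 of them (38.1%), against 32.5% of all tested genes and 35.4% of the 9361. HFD was lower for 12 of the list (28.6%, against 15.6% of all and 19.6% of the 9361). HFD was higher for 4 (9.52%, against 16.9% of all and 15.8% of the 9361). The list held between 0.378% and 0.4003% of all counts in the HFD libraries and between 0.388% and 0.394% in the RD libraries. When counts were scaled by library totals alone, 3 genes of the list were called higher and 3 lower, and higher levels in HFD made up 72.5% of the calls over all genes, compared to 56.0% under TMM. The number of calls was lower in several fits with 1 library left out, which leave 2 libraries in that group. Of the 42 genes, 4 were called without HFD replicate 1 (701 genes in all) and 1 without HFD replicate 2 (490 in all). Without HFD replicate 3, 1 was called (431 in all), and without RD replicate 2, 4 were called (890 in all). PGK1 was the gene called in each of these fits.

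**Figure D1:**
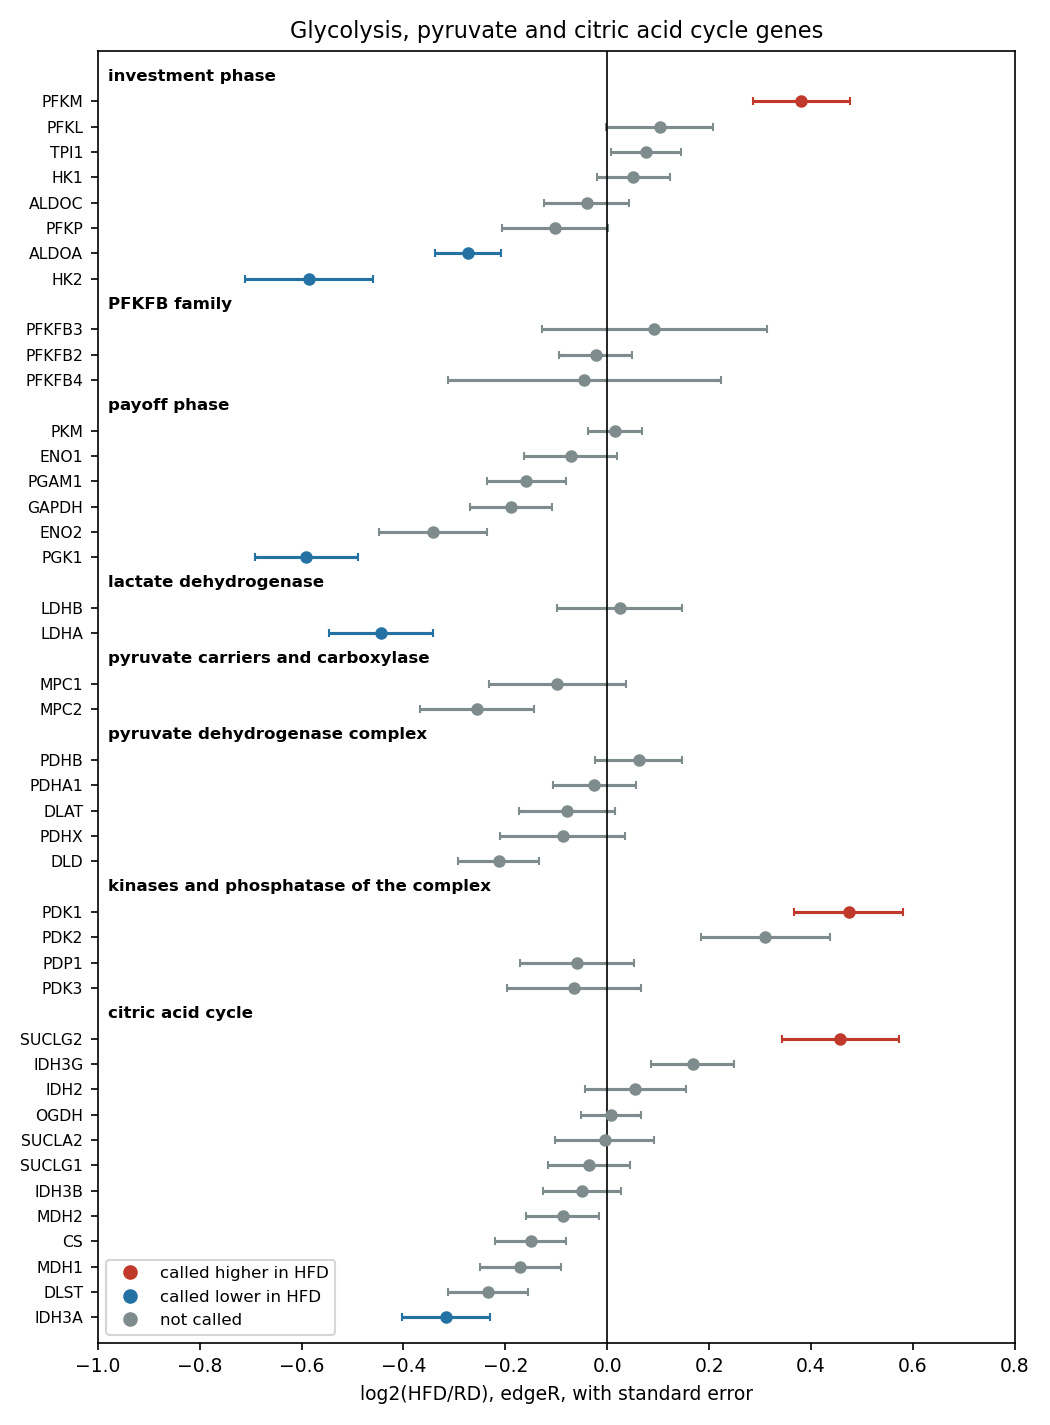
Change of each of the 42 genes, as log2(HFD/RD) from edgeR on the horizontal axis with its standard error (3 HFD against 3 RD libraries), grouped by role. PGK1, HK2, LDHA, ALDOA and IDH3A were called lower in HFD and PDK1, SUCLG2 and PFKM higher, and most of the other genes lay near 0.

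Totals over all rows of the count table were 14185372 to 14384933 counts in the HFD libraries and 15702214 to 18111345 in the RD libraries. The markers of the gland were present at high levels, led by growth hormone (GH1), which held 3.75% to 4.02% of counts in HFD and 5.87% to 7.003% in RD libraries. The hormone cells differed in their markers: 2 of 3 tested somatotroph markers were called lower, 3 of 4 gonadotroph markers lower and 1 higher, 2 of 3 thyrotroph markers higher, and of the lactotroph markers PRL lower and ANGPT1 higher. Also called higher were 1 marker among 5 of corticotrophs and melanotrophs (CRHR1) and 1 among 4 of folliculostellate and stem cells (ALDH1A2). In a whole gland, fewer cells of a type and less RNA per cell cannot be told apart. Levels are given as CPM, the count scaled by the library total and its TMM factor. The summed somatotroph markers ranged from 36885 to 39915 CPM in HFD and from 59337 to 72130 CPM in RD libraries. Nearly all of this was GH1, at 36587 to 39525 CPM in HFD and 58925 to 71594 CPM in RD libraries. GHRHR, another somatotroph marker, overlapped between the groups and was not called (adjusted p = 0.239). The summed gonadotroph markers ranged from 1023 to 1108 CPM in HFD and from 1345 to 1513 CPM in RD libraries, and the summed thyrotroph markers from 440.3 to 474 CPM in HFD and from 227 to 313 CPM in RD libraries. Of the other cells, 2 of 3 tested oligodendrocyte markers were called higher (summed level 69.8 to 181 CPM in HFD and 59.4 to 71.4 CPM in RD libraries), as was 1 of 4 neuronal markers. No marker was called among 5 of endothelium, 5 of mural cells and fibroblasts, 5 of myeloid cells, 5 of pituicytes and astrocytes and 2 of erythrocytes. The summed corticotroph and melanotroph markers, mostly POMC, ranged from 6142 to 14343 CPM in HFD and from 5919 to 10027 CPM in RD libraries. The summed pituicyte and astrocyte markers ranged from 119 to 239 CPM in HFD and from 191 to 309.5 CPM in RD libraries. HFD replicate 1 stood apart from the other HFD libraries in both, with 5792 CPM of the hormone precursor POMC, against 13677 and 11155 CPM in HFD replicates 2 and 3, and with 45.7 CPM of SCN7A, a pituicyte marker, against 109 and 103 CPM. RD replicate 1 had more of both than the other RD libraries, with 9447 CPM of POMC against 5526 and 5537 CPM and 146 CPM of SCN7A against 95.3 and 107 CPM. The calls without HFD replicate 1 are those given above, and 9 listed genes were called without RD replicate 1 (1523 in all), among them the 8 named. The part of these shifts in the changes of the listed genes was not tested.

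The promoters of the 4 called genes with the smallest p-values are shown because glycolytic genes are textbook targets of HIF1, whose binding core is ACGTG or GCGTG, and of factors that bind the E-box CACGTG. Each line gives the 250 bases before a transcription start listed in RefSeq (build GRCm38.p6), 5′ to 3′ on the strand of the gene, and capitals mark a core or an E-box read on either strand. They lie at chrX:106186850-106187099 (plus strand) for PGK1, chr6:82774455-82774704 (minus strand) for HK2, chr2:71872974-71873223 (plus strand) for PDK1 and chr7:46845554-46845803 (plus strand) for LDHA. For LDHA and PDK1, which have 2 listed starts each, the start nearest the 5′ end of the gene in GENCODE was taken. The window of LDHA lies inside the GENCODE span of the gene given below, and the windows of the other 3 genes end directly before theirs.
PGK1: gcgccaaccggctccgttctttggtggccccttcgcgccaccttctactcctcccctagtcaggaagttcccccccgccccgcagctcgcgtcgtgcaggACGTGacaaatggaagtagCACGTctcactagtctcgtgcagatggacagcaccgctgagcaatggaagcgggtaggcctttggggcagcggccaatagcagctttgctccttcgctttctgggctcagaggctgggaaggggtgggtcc
HK2: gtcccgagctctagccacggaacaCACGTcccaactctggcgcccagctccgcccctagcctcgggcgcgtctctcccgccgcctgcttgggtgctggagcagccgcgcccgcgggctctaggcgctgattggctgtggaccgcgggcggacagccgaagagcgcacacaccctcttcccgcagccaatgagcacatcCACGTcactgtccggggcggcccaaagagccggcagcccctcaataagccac
PDK1: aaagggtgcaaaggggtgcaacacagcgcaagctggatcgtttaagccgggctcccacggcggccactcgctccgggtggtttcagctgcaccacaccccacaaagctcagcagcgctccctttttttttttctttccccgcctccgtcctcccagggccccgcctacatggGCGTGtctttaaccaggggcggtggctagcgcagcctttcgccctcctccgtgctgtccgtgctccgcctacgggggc
LDHA: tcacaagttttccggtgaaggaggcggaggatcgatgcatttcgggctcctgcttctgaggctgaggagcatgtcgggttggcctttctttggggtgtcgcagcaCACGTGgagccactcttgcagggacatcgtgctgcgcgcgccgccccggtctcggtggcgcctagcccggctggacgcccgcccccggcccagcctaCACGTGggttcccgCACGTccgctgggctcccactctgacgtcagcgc
The windows of PGK1 and HK2 each held 2 cores, that of PDK1, which changed in the opposite direction, held 1, and that of LDHA held 5, counted on both strands. The E-box CACGTG contains ACGTG on both of its strands, so the 2 E-boxes of LDHA account for 4 of its 5 cores. A core was found in the windows of 28 of the 40 listed genes with a promoter entry (70.0%), against 38.6% of the 32851 promoters in the RefSeq table. The windows of the list were also richer in G and C, with a median of 61.6% against 52.4%. A core was present for 5 of 7 called genes (71.4%) and for 23 of 33 genes not called (69.7%). The windows of ALDOA and SUCLG2 held no match to these letters, and IDH3A had no entry. An E-box was found for 3 of the 40 genes (7.5%), against 6.02% of all promoters. These matches describe the letters of the windows and no binding.

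The investment phase, with 8 of its 9 listed genes measured, contained both directions, with 2 genes called lower, HK2 and ALDOA (25% of 8, against 4.61% of all tested genes), and 1 called higher, PFKM (12.5%, against 5.87%). HK2 (chr6:82725025-82774454 on mm10, minus strand), an inducible hexokinase that binds mitochondria and traps glucose as glucose-6-phosphate, had 28.9, 26.8 and 21.3 CPM in the HFD libraries, against 38.9, 34.8 and 41.7 CPM in the RD libraries. The groups did not overlap, and the fitted change was -0.59 ± 0.13 (log2, SE; adjusted p = 0.0191). ALDOA (chr7:126795234-126800751, minus strand), the aldolase that cleaves fructose 1,6-bisphosphate, was expressed far more strongly. Its levels were 391, 421 and 441 CPM in HFD and 479, 513 and 523 CPM in RD libraries, again without overlap, for a change of -0.27 ± 0.07 (adjusted p = 0.0291). PFKM (chr15:98092589-98132451, plus strand), the muscle-type subunit of phosphofructokinase, the committed step of the pathway, had 106, 126 and 126 CPM in HFD libraries against 98.7, 94.6 and 82.0 CPM in RD libraries. All HFD libraries lay above all RD libraries, for a change of 0.38 ± 0.10 (adjusted p = 0.0340).

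The other members of these families were not called. HK1, the constitutive hexokinase, averaged 156 ± 3.28 CPM in HFD and 151 ± 11.5 CPM in RD libraries (SD, n = 3 each), for a log2 change of 0.05. PFKL, the liver-type phosphofructokinase, averaged 71.1 ± 9.62 CPM in HFD and 66.2 ± 3.89 CPM in RD, and PFKP, the platelet-type form, 118 ± 15.9 CPM in HFD and 126 ± 9.88 CPM in RD. Both overlapped between the groups, with log2 changes of 0.10 and -0.10. The log2 change was -0.04 for ALDOC, the aldolase known from brain, and 0.08 for TPI1, which interconverts the triose phosphates. The call of HK2 was lost without HFD replicate 2 (adjusted p = 0.0655) or 3 (0.0753). That of PFKM was lost when RD replicate 2 (0.0709) or either of HFD replicates 2 (0.137) and 3 (0.144) was left out. That of ALDOA was lost when RD replicate 2 (0.0790) or any of HFD replicates 1 (0.0994), 2 (0.104) and 3 (0.0633) was left out, and under scaling by library totals alone (0.0674). Of the 50-base stretches of ALDOA, 13.5% also occur in 6 other annotated genes, so some of its reads may be shared. Exons of Gm26513 overlap 10.2% of the merged exons of PFKM. None of the 50-base stretches of the longest coding PFKM transcript occur in another gene.

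The 3 bifunctional PFKFB enzymes, which make and break fructose 2,6-bisphosphate, the activator of phosphofructokinase, showed no call. PFKFB4 had 34.8, 34.3 and 43.3 CPM in HFD and 29.2, 26.3 and 60.2 CPM in RD libraries. A single library, RD replicate 3, was the highest of the 6, and the fitted change was -0.05 ± 0.27 (adjusted p = 0.939). Without that library the change reversed to 0.43 and was called (adjusted p = 0.0482). PFKFB3, the inducible form, had 19.3, 20.6 and 28.7 CPM in HFD and 28.3, 20.96 and 15.3 CPM in RD libraries. It was the least even gene of the list in HFD libraries and second to PFKFB4 in RD libraries, with SDs on the log2 scale of 0.31 in HFD and 0.44 in RD. PFKFB2, known from heart, was even at 90.6 ± 3.47 CPM in HFD and 92.0 ± 4.09 CPM in RD libraries (SD, n = 3 each).

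**Figure D2:**
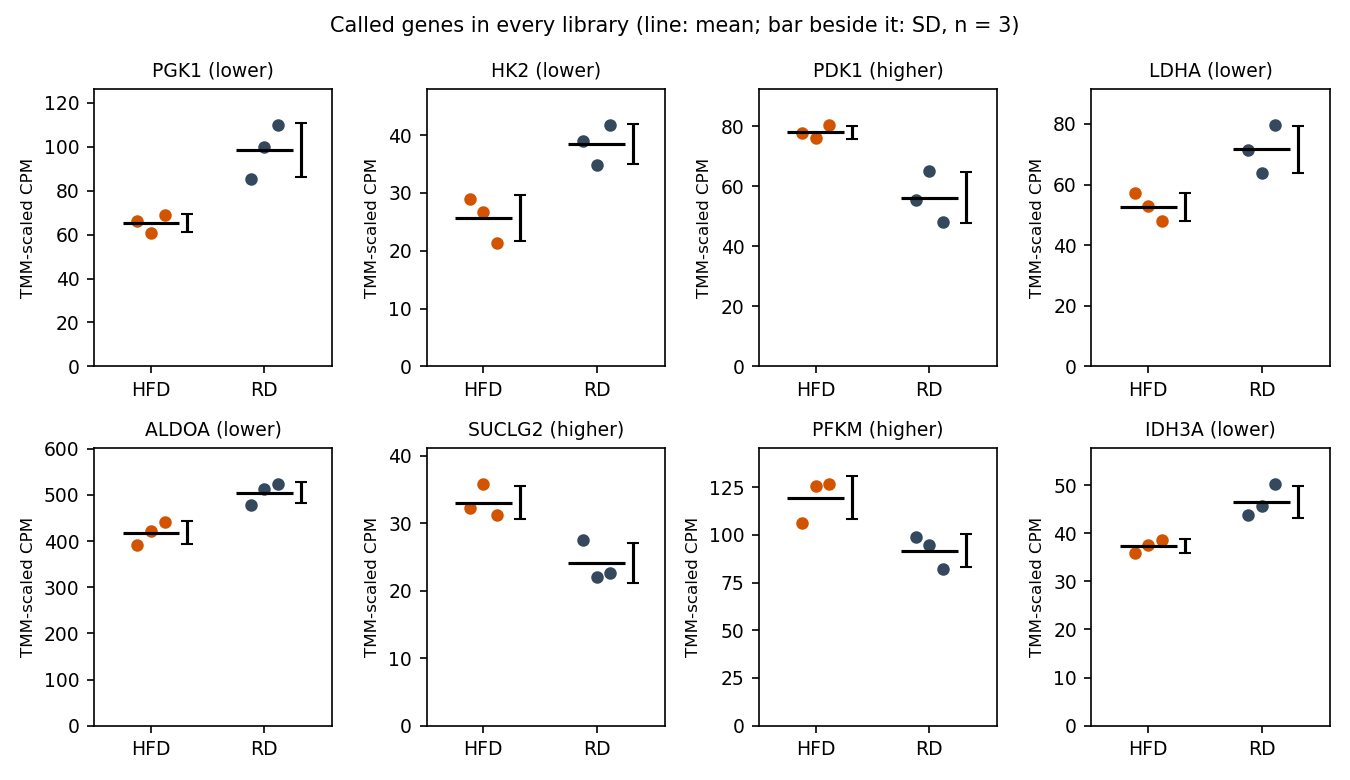
Level of the 8 called genes in every library, in TMM-scaled CPM (vertical axes, starting at 0), HFD left and RD right, with the mean and the SD of 3 libraries. Each HFD library lay below each RD library for PGK1, HK2, LDHA, ALDOA and IDH3A, and above for PDK1, SUCLG2 and PFKM.

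In the payoff phase 1 of 6 genes was called, PGK1, which is 16.7% of the phase called lower, against 4.61% of all tested genes. In 4 of the 6 every HFD library lay below every RD library (66.7%), a share that rests on 6 genes. It was 15.6% for all tested genes and 19.6% for those at or above the level of the lowest listed gene. PGK1 (chrX:106187100-106203699, plus strand) encodes phosphoglycerate kinase, which makes the first ATP of the phase. It had 66.1, 60.9 and 69.1 CPM in HFD libraries and 85.4, 99.998 and 110 CPM in RD libraries. The change of -0.59 ± 0.10 (adjusted p = 0.00754) had the smallest p of the list and stayed called in all 18 alternative fits, with a log2 change between -0.69 and -0.51. Of the 50-base stretches of PGK1, 68.0% also occur in 5 other annotated genes, so its reads may be shared with those copies.

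ENO2, the neuron-specific enolase, which endocrine cells also make, had 103, 105 and 105 CPM in HFD and 121, 119 and 158 CPM in RD libraries. RD replicate 3 stood above the other RD libraries, and the change of -0.34 ± 0.11 was not called (adjusted p = 0.0683). It was called by DESeq2 (0.0238) and without RD replicate 1 (0.0458). GAPDH, glyceraldehyde-3-phosphate dehydrogenase, averaged 46.6 ± 1.08 CPM in HFD and 53.1 ± 3.19 CPM in RD libraries, for a change of -0.19 ± 0.08 (adjusted p = 0.171). The level of GAPDH is uncertain, since 82.5% of its 50-base stretches occur in 222 other genes. PGAM1, phosphoglycerate mutase, did not overlap either, at 66.0 ± 1.65 CPM in HFD and 73.7 ± 4.68 CPM in RD libraries (log2 change -0.16, adjusted p = 0.228). The log2 change was -0.07 for ENO1, the ubiquitous enolase, and 0.02 for PKM, pyruvate kinase. PKM was among the steadiest genes, with 447, 438 and 452 CPM in HFD and 433, 444 and 447 CPM in RD libraries. Of their 50-base stretches, 72.2% for ENO1 and 34.4% for PKM occur in other annotated genes.

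Of the subunits of lactate dehydrogenase, LDHA was called and LDHB was not. LDHA (chr7:46841475-46855627, plus strand), the subunit associated with lactate formation, had 57.2, 52.9 and 47.9 CPM in HFD and 71.3, 63.9 and 79.6 CPM in RD libraries. All HFD libraries lay below all RD libraries, for a change of -0.44 ± 0.10 (adjusted p = 0.0251). LDHB, the subunit known from heart, had 24.7, 30.5 and 32.5 CPM in HFD and 31.6, 26.9 and 27.8 CPM in RD libraries, which overlapped (log2 change 0.02 ± 0.12, adjusted p = 0.925). LDHA was not called without HFD replicate 2 (0.0932) or 3 (0.118). The log2 ratio of LDHA to LDHB averaged 0.85 in HFD and 1.31 in RD libraries, a difference of -0.46 whose groups overlapped (exact two-sided permutation p = 0.2). The smallest p that this test can give for 3 libraries against 3 is 0.1, so it cannot decide whether the subunits differed. Of the 50-base stretches of LDHA, 16.6% occur in 14 other genes.

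Neither subunit of the mitochondrial pyruvate carrier was called. MPC2 had 19.98, 23.0 and 18.6 CPM in HFD and 25.4, 24.4 and 23.7 CPM in RD libraries. HFD lay below RD in every library, but the change of -0.26 ± 0.11 did not pass (adjusted p = 0.178). MPC1 overlapped between the groups, with a log2 change of -0.10 ± 0.13.

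The 5 genes of the pyruvate dehydrogenase complex itself were not called. PDHA1 and PDHB, the subunits of the decarboxylase, had log2 changes of -0.03 and 0.06. PDHA1 averaged 62.6 ± 1.66 CPM in HFD and 63.7 ± 4.44 CPM in RD libraries (SD, n = 3 each), and PDHB 61.5 ± 3.02 CPM in HFD and 59.0 ± 4.35 CPM in RD libraries. For DLAT, the acetyltransferase core, the log2 change was -0.08, and for PDHX, which binds DLD to it, -0.09. DLD, the dihydrolipoamide dehydrogenase that this complex shares with the oxoglutarate and branched-chain complexes, came closest, with 53.3, 58.1 and 55.5 CPM in HFD and 60.9, 64.6 and 68.0 CPM in RD libraries. The groups did not overlap, and the change was -0.21 ± 0.08 (adjusted p = 0.121).

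Among the regulators of the complex 1 of 4 was called, in the higher direction (25%, against 5.87% of all tested genes). PDK1 (chr2:71873224-71903858, plus strand), a kinase that phosphorylates and inhibits the complex, had 77.7, 75.9 and 80.3 CPM in HFD libraries, against 55.6, 64.9 and 48.1 CPM in RD libraries. The HFD libraries were close to each other and all above the RD libraries, for a change of 0.47 ± 0.11 (adjusted p = 0.0224). PDK2, another kinase of the family, had 49.4, 59.4 and 57.3 CPM in HFD and 47.7, 50.1 and 36.3 CPM in RD libraries, which overlapped (0.31 ± 0.13, adjusted p = 0.152). PDK3 had a log2 change of -0.07 (adjusted p = 0.794), and PDP1, the phosphatase that reactivates the complex, one of -0.06 (adjusted p = 0.780). PDK4, the kinase induced by fasting and fatty acids, lay outside the list of 45 and averaged 45.7 ± 8.16 CPM in HFD and 32.2 ± 8.17 CPM in RD libraries. It was not called (0.51 ± 0.18, adjusted p = 0.108). PDK1 was not called without HFD replicate 1 (0.0660), 2 (0.0744) or 3 (0.103).

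The citric acid cycle, with 12 of 13 listed genes measured, had 1 call in each direction (8.33% each, against 5.87% of all tested genes called higher and 4.61% called lower). SUCLG2 (chr6:95473009-95718800, minus strand), the beta subunit that makes succinyl-CoA synthetase form GTP, had 32.2, 35.7 and 31.2 CPM in HFD libraries, against 27.5, 22.1 and 22.6 CPM in RD libraries. HFD lay above RD throughout, for a change of 0.46 ± 0.11 (adjusted p = 0.0337). The alternative, ATP-forming beta subunit SUCLA2 averaged 53.6 ± 5.21 CPM in HFD and 53.7 ± 4.01 CPM in RD libraries, and SUCLG1, the alpha subunit that both use, 35.3 ± 0.71 CPM in HFD and 36.2 ± 0.72 CPM in RD libraries (SD, n = 3 each). Neither was called, with log2 changes of -0.01 and -0.04.

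IDH3A (chr9:54586334-54604661, plus strand), the catalytic subunit of the NAD-dependent isocitrate dehydrogenase, had 35.9, 37.5 and 38.7 CPM in HFD and 43.8, 45.6 and 50.2 CPM in RD libraries. The groups did not overlap, and the change was -0.32 ± 0.09 (adjusted p = 0.0449), the largest adjusted p of the 8 calls. The other subunits, IDH3B and IDH3G, were not called, with changes of -0.05 ± 0.08 and 0.17 ± 0.08. IDH3G was higher in every HFD library (65.7, 68.4 and 67.4 CPM) than in any RD library (59.7, 64.3 and 55.5 CPM). IDH2, the mitochondrial NADP-dependent enzyme, had a log2 change of 0.06. DLST, the core of the oxoglutarate dehydrogenase complex, had 93.9, 82.5 and 88.5 CPM in HFD and 98.7, 102 and 111 CPM in RD libraries without overlap, for an uncalled change of -0.23 ± 0.08 (adjusted p = 0.0898). OGDH, the first enzyme of the same complex, averaged 374 ± 10.5 CPM in HFD and 372 ± 15.5 CPM in RD libraries. For CS, citrate synthase, the log2 change was -0.15 ± 0.07 (adjusted p = 0.207), without overlap between the groups. The malate dehydrogenases MDH1 (cytosolic) and MDH2 (mitochondrial) had log2 changes of -0.17 and -0.09, and their groups overlapped.

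Both calls in the cycle were lost in most fits with 1 library left out, which leave 2 libraries in that group. In these fits the log2 change stayed between 0.39 and 0.56 for SUCLG2 and between -0.37 and -0.26 for IDH3A. Whether the losses reflect particular libraries or the smaller group was not tested. SUCLG2 kept its call when RD replicate 1 was left out, and lost it when any of HFD replicates 1 (adjusted p = 0.0805), 2 (0.139) and 3 (0.0901) or RD replicates 2 (0.1003) and 3 (0.0518) was. IDH3A likewise lost its call with any of HFD replicates 1 (0.139), 2 (0.140) and 3 (0.120) or RD replicates 2 (0.0875) and 3 (0.0657) left out. It was also not called by limma-voom (0.0513), with upper-quartile scaling (0.0633), with scaling by library totals alone (0.0861) or with the GC trend removed (0.0561). Of the 50-base stretches of SUCLG2, 21.8% occur in 1 other gene, and none of IDH3A do.

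Levels were also compared between genes, as CPM per kilobase of the longest coding transcript. ALDOA stood highest, at 270 in HFD and 326 in RD libraries, followed by PKM at 183 in HFD and 181 in RD libraries. OGDH came next at 90.6 in HFD and 90.2 in RD, then MDH1 at 84.7 in HFD and 95.4 in RD and TPI1 at 79.98 in HFD and 75.9 in RD libraries. These 3 lay close together, so that MDH1 followed OGDH in HFD and led it in RD. The lowest genes were PFKFB3 at 4.77 in HFD and 4.48 in RD, HK2 at 4.65 in HFD and 6.98 in RD, PDP1 at 6.74 in HFD and 7.02 in RD and PDHX at 7.20 in HFD and 7.65 in RD libraries. SUCLG2, at 9.81 in HFD and 7.14 in RD libraries, lay between PDP1 and PDHX in RD and above PDHX in HFD. Called genes were therefore found at both ends of the range, with ALDOA highest and HK2 and SUCLG2 among the low genes. The typical spread within a group was small, with a median SD over the 42 genes of 0.086 on the log2 scale in HFD libraries and 0.11 in RD libraries. RD replicate 3 was the highest of its group for 21 of the 42 genes, and HFD replicate 1 the lowest of its group for 21.

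Most steps are shared between isoenzymes or alternative subunits, so the share of each in its family was computed from CPM per kilobase. Among HK1, HK2 and HK3, HK2 made up 11.03% ± 1.52 of the transcripts in HFD and 16.3% ± 2.32 in RD libraries (SD, n = 3 each), and its groups did not overlap. HK1 made up 86.5% ± 1.17 in HFD and 81.9% ± 1.92 in RD libraries, also without overlap. The log2 ratio of HK2 to HK1 was lower in HFD by 0.65, with means of -2.62 in HFD and -1.97 in RD libraries (exact two-sided permutation p = 0.1). With 3 libraries against 3 this test cannot go below 0.1, and over the 18 ratios compared in 10 families the smallest adjusted p was 0.138, so none passes. The families were picked because they contain called genes, so these ratios are a description.

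SUCLG2 made up 29.0% ± 1.54 of the beta subunits of succinyl-CoA synthetase in HFD and 22.8% ± 2.29 in RD libraries, the rest being SUCLA2. The ratio of SUCLG2 to SUCLA2 was higher by 0.47 in HFD (exact permutation p = 0.1). Within the isocitrate dehydrogenase subunits IDH3A held 14.3% ± 0.59 in HFD and 18.0% ± 1.53 in RD libraries, and IDH3G 49.8% ± 0.73 in HFD and 44.7% ± 2.22 in RD libraries. For both shares the groups did not overlap. PDK1 held 24.2% ± 1.62 of kinase transcripts in HFD and 21.6% ± 1.16 in RD libraries, and PFKM 46.6% ± 3.68 of phosphofructokinase transcripts in HFD and 39.8% ± 2.84 in RD libraries. Both shares overlapped between the groups, although each gene was called higher in HFD. The share of PDK3 was lower in HFD, with 15.4% ± 0.78 in HFD and 20.3% ± 4.26 in RD libraries without overlap.

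**Figure D3:**
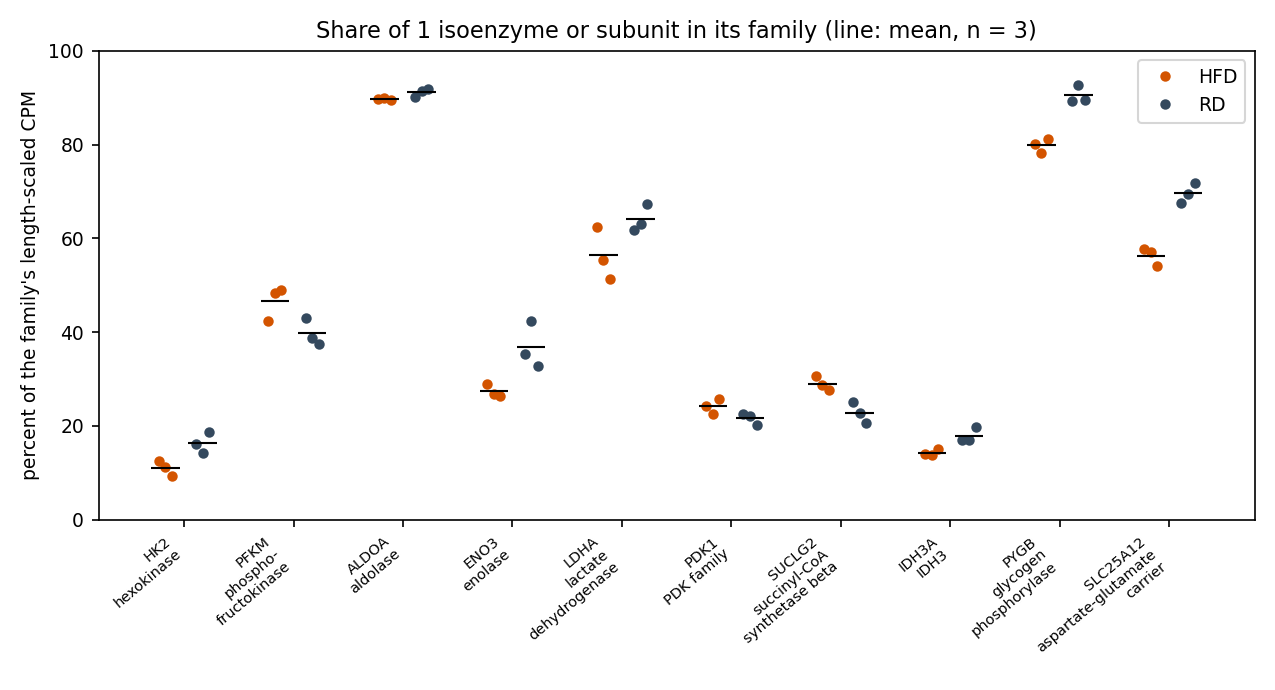
Share of 1 isoenzyme or subunit in the transcripts of its family, in percent of CPM per kilobase (vertical axis), for 10 families (hexokinase being HK1, HK2 and HK3), with a point for each library, HFD left of RD, and a line at the mean. The shares of HK2, ALDOA, ENO3, IDH3A, PYGB and SLC25A12 were lower and that of SUCLG2 higher in every HFD than in every RD library, while the groups overlapped for PFKM, LDHA and PDK1.

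Genes next to these routes were taken from 7 lists of other enzymes and transporters. Of 89 named genes 84 were tested and 10 were called (11.9%), 5 higher and 5 lower, which is close to the 10.5% of all tested genes. The strongest was ENO3, the muscle-type enolase, with 51.5, 51.6 and 49.8 CPM in HFD and 83.9, 103 and 83.7 CPM in RD libraries. All HFD libraries lay below all RD libraries, for a change of -0.82 ± 0.10 (adjusted p = 0.00157). ENO3 made up 27.4% ± 1.38 of enolase transcripts in HFD and 36.8% ± 5.004 in RD libraries, and ENO1 41.3% ± 2.22 in HFD and 33.1% ± 3.12 in RD libraries. ENO3 is also a marker of skeletal muscle. The other 7 muscle markers had 1 to 29 counts per HFD library and 1 to 33 per RD library, while ENO3 had 737 to 760 counts per HFD library and 1371 to 1583 per RD library.

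Glycogen phosphorylase, which releases glucose units from glycogen, showed calls in both directions. PYGB, the brain form, had 122, 138 and 144 CPM in HFD and 190, 236 and 191 CPM in RD libraries, without overlap (-0.61 ± 0.10, adjusted p = 0.00613). PYGL, the liver form, averaged 8.17 ± 0.43 CPM in HFD and 4.67 ± 0.61 CPM in RD libraries (0.80 ± 0.18, adjusted p = 0.0210), and PYGM, the muscle form, 17.2 ± 2.91 CPM in HFD and 11.1 ± 1.22 CPM in RD libraries (0.64 ± 0.16, adjusted p = 0.0320). PYGB thereby held 79.8% ± 1.52 of phosphorylase transcripts in HFD and 90.5% ± 1.95 in RD libraries. Of the 8 other tested genes of glycogen metabolism, none was called. PGM2, of the phosphoglucomutase family, came closest (-0.29 ± 0.08, adjusted p = 0.0579).

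Transport was likewise mixed. SLC2A1, the glucose transporter GLUT1, had 25.3, 28.2 and 33.1 CPM in HFD and 37.1, 40.6 and 49.5 CPM in RD libraries, without overlap (-0.56 ± 0.13, adjusted p = 0.0291). SLC16A7, the monocarboxylate transporter MCT2, averaged 41.8 ± 1.77 CPM in HFD and 31.7 ± 4.37 CPM in RD libraries (0.40 ± 0.11, adjusted p = 0.0447). The aspartate-glutamate carriers of the malate-aspartate shuttle, which brings the electrons of cytosolic NADH into mitochondria, were called in opposite directions, although the call of SLC25A12 was lost in several alternative fits. SLC25A12 averaged 96.6 ± 1.999 CPM in HFD and 117 ± 10.1 CPM in RD libraries (-0.28 ± 0.08, adjusted p = 0.0476), and SLC25A13 36.9 ± 3.44 CPM in HFD and 25.3 ± 3.86 CPM in RD libraries (0.54 ± 0.13, adjusted p = 0.0266). Their log2 ratio was 1.39 in HFD and 2.22 in RD libraries on average, and its groups did not overlap (exact permutation p = 0.1). SLC25A12 was not called with upper-quartile scaling (adjusted p = 0.0774), with scaling by library totals alone (0.121), by limma-voom (0.0535) or with the GC trend (0.0579) or the length trend (0.0541) removed.

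The remaining calls were DBT, the acyltransferase core of the branched-chain oxoacid dehydrogenase complex (-0.54 ± 0.12, adjusted p = 0.0211), and PCCB, a subunit of propionyl-CoA carboxylase, which feeds the cycle at succinyl-CoA (0.34 ± 0.08, adjusted p = 0.0248). No gene was called among 7 of the pentose phosphate pathway, where RPE had the smallest p (-0.27, adjusted p = 0.0960). FBP2, a fructose bisphosphatase at only 3.80 ± 0.62 CPM in HFD and 2.03 ± 0.51 CPM in RD libraries, missed the threshold (0.90 ± 0.27, adjusted p = 0.0666). In the cycle, the log2 change was 0.03 for SDHA and -0.22 for SDHD, subunits of succinate dehydrogenase, neither of them called. Of the 10 calls, ENO3 and PYGB held with any library left out. Without HFD replicate 2 the other 8 were lost, with adjusted p up to 0.165. Without HFD replicate 1 all of these but PYGM were lost (up to 0.111), without HFD replicate 3 all but SLC2A1 (up to 0.170) and without RD replicate 2 all but SLC25A13 (up to 0.139). SLC25A12 was also lost without RD replicate 1 (0.0679) and SLC16A7 without RD replicate 3 (0.0721).

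**Figure D4:**
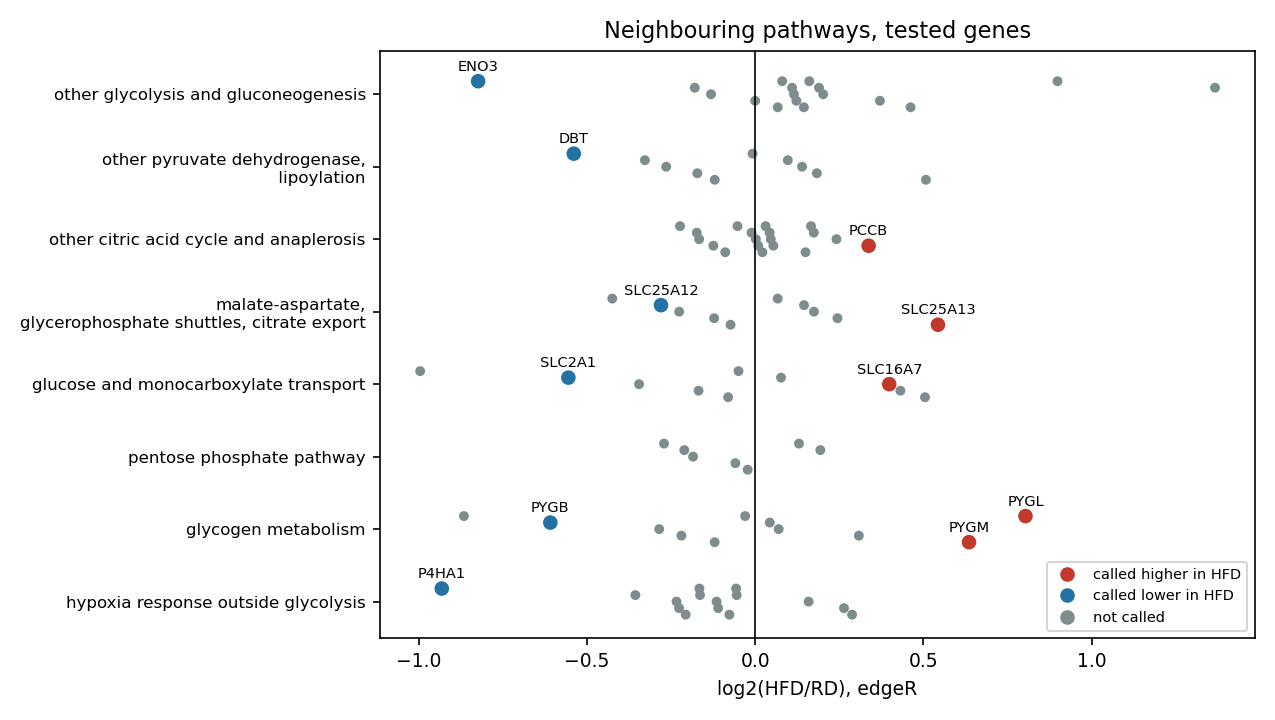
Change of the tested genes of 8 neighbouring lists, as log2(HFD/RD) from edgeR (horizontal axis), with a point for each gene and names for the called genes. Calls lie on both sides of 0, with ENO3, PYGB and P4HA1 among the called genes lower in HFD and PYGL and PYGM among those higher.

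PGK1, HK2, LDHA, ALDOA, PDK1 and SLC2A1 are all known as HIF1 targets in other tissues, so 15 further genes of the hypoxia response were read beside them. The named genes were taken from the called ones. In glycolysis with lactate dehydrogenase, 14 of 19 tested genes were not called. Among those 14 were GAPDH (log2 change -0.19), PGAM1 (-0.16), ENO1 (-0.07), PKM (0.02), TPI1 (0.08) and PFKL (0.10). Of the 15 further genes, 1 was called (6.67%, against 10.5% of all tested genes), a share that rests on a single gene. It was P4HA1, a collagen prolyl hydroxylase, with 138, 131 and 125 CPM in HFD and 227, 233 and 294 CPM in RD libraries. The groups did not overlap, the change was -0.93 ± 0.10 (adjusted p = 0.00122), and it stayed called in all 18 alternative fits. The HFD libraries lay below the RD libraries for 6 of the 15 genes (40%) and above them for 0. Among all tested genes these shares were 15.6% below and 16.9% above. Among the 9361 genes at or above the level of the lowest listed gene they were 19.6% below and 15.8% above. The 6 were P4HA1, BNIP3L and KDM3A together with HIF1A, EPAS1 and ARNT, which encode subunits of HIF factors. The share therefore does not describe targets alone. EPAS1 and ARNT were not called (log2 changes -0.17 and -0.16, adjusted p = 0.158 and 0.151). DDIT4 (0.29), ADM (0.26) and NDRG1 (0.16) lay above 0 with overlapping groups and no call. BNIP3L, a mitophagy receptor (-0.36 ± 0.10, adjusted p = 0.0503), HIF1A itself (-0.23 ± 0.07, 0.0728) and KDM3A, a histone demethylase (-0.21 ± 0.07, 0.0862), were below 0 without a call. For VEGFA, the endothelial growth factor, it was -0.05 (0.723). PDK1 was higher in HFD, unlike PGK1, HK2, LDHA, ALDOA and SLC2A1.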

How the data were processed

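Polyadenylated RNA of pituitary glands was selected with oligo-dT and sequenced, per the labels' protocols. The authors deposited whole-number read counts per gene, with no normalization, and the build was mm10, per the submitters' processing notes. Aligner, counter, annotation and use of strand: not given in the sources used here. Between 64.0% and 67.0% of counts from 1 to 10 were even, so both mates of a pair may have been counted, and no counting intervals are given. Of the rows, 96.7% had a GENCODE M21 gene of that symbol, and 43 symbols stood on 2 rows.

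The 3 HFD libraries were compared with the 3 RD libraries with edgeR 4.0.16 in R 4.3.3 (quasi-likelihood test, TMM factors, minimum count 10, minimum total 15, two-sided, Benjamini-Hochberg over all tested rows, threshold 0.05). CPM are TMM-scaled, standard errors are the size of the change over the root of F, and means carry the SD of 3 libraries. Lengths, coordinates and shared 50-base stretches came from GENCODE M21, and promoters from RefSeq. No libraries of a group were identical (chi-square per degree of freedom 4.48 to 21.1 between replicates). Alternatives used other scalings and filters, DESeq2 1.42.0, limma-voom (limma 3.58.1), other thresholds, halved counts, a replicate block and each library left out. Removal of GC or length trends (loess, span 0.4) and scaling without hormone genes were chosen after seeing the data. The fit was tested on simulated data. The genes and lists were chosen with earlier results of these data known. Named are all called genes, the uncalled genes of each group with the smallest p and members of their families. SDHA, VEGFA, EPAS1, ARNT, DDIT4, ADM and NDRG1 were chosen after their values were seen. A few genes of the lists are not reported here.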

Additional observations from a re-analysis of the deposited data

How the results depend on the processing

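Over 756 pairs of a listed gene and an alternative, the side of the threshold was kept in 720 with no called value changing sign, a call was lost in 33 and gained in 2, and 1 reversed (PFKFB4, 0.43 without RD replicate 3; its range with a library left out was -0.26 to 0.43). The median log2 change of the list was -0.023 with upper-quartile scaling and 0.014 with library size only, where 3 genes were called lower. With each library left out, 431 to 1523 genes were called in all, 0 to 3 listed genes higher and 1 to 6 lower, with a median between -0.08 and -0.04. At an adjusted p under 0.01 the calls were 412 in all, 0 listed genes higher and 1 lower (PGK1), and under 0.10 they were 2343 in all. DESeq2 called 1783 genes and 9 of the list, limma-voom 1406 and 7, and halved counts 1458 and 8. Why the counts moved was not tested.

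Replicate numbers are shared by the groups, but same-numbered libraries did not deviate together (correlations -0.127, 0.0037 and -0.0972). With 3 libraries a group these values cannot settle whether the numbers mark pairs. With a replicate block 808 genes were called, with 1 listed gene higher and 3 lower. LDHA (adjusted p = 0.0609), SUCLG2 (0.0719), PFKM (0.0795) and IDH3A (0.0890) were not called under the block, nor were PCCB, SLC25A12, SLC25A13, SLC16A7, PYGL and PYGM. With 3 libraries a group, the 34 genes of the list without a call are not shown to be equal in HFD and RD.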
